A study of Mus musculus with 6 samples.

Results

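Genes that write DNA methylation or protect it were followed in single mouse blastocysts (C57BL/6 background, embryonic day 3.5) that had been injected as zygotes with small RNAs from sperm. In the Dep group (3 embryos, Dep 1 to Dep 3) the injected small RNAs came from males made depressive by stress, and in the Ctl group (3 embryos, Ctl 1 to Ctl 3) from normal males. Both groups received 2 ng/µl, were cultured outside the body and were collected about 96 h after injection, so each carries the injection and the culture. No embryo without an injection is among these samples. The genes were chosen by name: Dnmt1, Dnmt3a, Dnmt3b, Uhrf1, Uhrf2, Zfp57, Trim28 and Dppa3. All 8 were among the 12149 genes of the table. RNA was measured, and neither DNA methylation nor protein was.

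In mammals, DNA methylation sits mainly on cytosines of CpG pairs. DNMT3A and DNMT3B place it on unmethylated DNA, and DNMT1, brought to replicating DNA by UHRF1, copies it to the new strand. Between fertilization and the blastocyst most of the methylation inherited from sperm and egg is lost, while imprinted regions keep theirs. ZFP57 binds a methylated motif at these regions and recruits TRIM28 with its partners, and DPPA3, a maternal protein also called Stella, shields maternal chromatin from oxidation of methylcytosine and can hold UHRF1 out of the nucleus. Setting Dep against Ctl addresses the question of whether small RNAs in the sperm of stressed males alter RNA levels of the early embryo.

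Some start regions of 3 of these genes are shown. Uhrf2 was the gene whose groups did not overlap, Zfp57 varied most among embryos, and Dnmt1 has starts of different kinds that a value per gene adds together. Whether the CpG counts of these regions are related to the RNA levels was not tested. In each run the 250 bases before a RefSeq start on GRCm38.p6 are written 5′ to 3′, and capitals mark each CpG, the letters CG, which read the same on both strands.
Uhrf2, chr19:30030263-30030512, plus strand: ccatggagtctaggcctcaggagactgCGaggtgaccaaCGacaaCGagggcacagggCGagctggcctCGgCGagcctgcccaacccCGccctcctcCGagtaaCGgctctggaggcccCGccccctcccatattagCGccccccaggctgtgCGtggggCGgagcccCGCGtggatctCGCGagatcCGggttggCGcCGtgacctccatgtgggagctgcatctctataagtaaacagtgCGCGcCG
Zfp57, farthest upstream start, chr17:37000913-37001162, plus strand: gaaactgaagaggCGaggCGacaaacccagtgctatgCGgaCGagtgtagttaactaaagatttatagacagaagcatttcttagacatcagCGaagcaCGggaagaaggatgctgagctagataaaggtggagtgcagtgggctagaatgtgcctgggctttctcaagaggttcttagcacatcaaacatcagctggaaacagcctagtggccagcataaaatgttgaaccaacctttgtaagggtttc
Dnmt1, farthest upstream start, chr9:20959889-20960138, minus strand: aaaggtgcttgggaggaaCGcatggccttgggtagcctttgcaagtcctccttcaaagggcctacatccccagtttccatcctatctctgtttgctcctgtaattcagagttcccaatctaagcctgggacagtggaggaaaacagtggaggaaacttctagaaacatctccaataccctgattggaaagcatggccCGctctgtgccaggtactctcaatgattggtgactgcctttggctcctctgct
Dnmt1, next start, chr9:20952980-20953229, minus strand: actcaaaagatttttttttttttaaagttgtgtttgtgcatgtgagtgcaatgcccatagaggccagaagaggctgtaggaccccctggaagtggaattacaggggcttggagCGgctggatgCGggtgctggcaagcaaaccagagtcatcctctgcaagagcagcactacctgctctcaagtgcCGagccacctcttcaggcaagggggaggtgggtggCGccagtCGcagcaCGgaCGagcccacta
The Uhrf2 stretch holds 23 CpGs, a number reached by 13.3% of the 32851 promoters of the RefSeq table over the same length. The Zfp57 stretch holds 6, which 50.4% reach, and further Zfp57 starts, not printed, hold 3 and 7, which 71.0% and 46.3% reach. The Dnmt1 stretches hold 2 and 7, which 81.2% and 46.3% reach, and a further Dnmt1 start holds 26, which 9.59% reach. Oocytes are known to start Dnmt1 transcripts at an exon of their own, and the table gives 1 value for all starts. The RefSeq table had entries for 7 of the 8 genes, with no entry for Dppa3.

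Library facts that touch these results are few. Reads in listed genes numbered from 17213406 to 19439008 in Dep and from 16543356 to 21548220 in Ctl. Dep 1 differed from the rest: 691 of its genes had no read, where the other embryos had 5 to 106 such genes. All 8 genes had reads in every embryo, from 74 reads for Zfp57 in Dep 1 to 74388 for Dppa3 in Ctl 2, and counting error alone is 11.6% of the value at 74 reads. Embryo markers checked against the label were present: 12 of 12 epiblast, 12 of 12 trophectoderm and 12 of 13 primitive endoderm markers were in the table. In Dep 1 the primitive endoderm markers Sox17, Gata4 and Sox7 and the epiblast marker Fgf4 were listed at 0, and Gata4 was at 0 in Ctl 3. Summed normalized counts ran from 53030.0 in Dep 2 to 144300.0 in Dep 1 for trophectoderm, against 62230.0 to 107900.0 in Ctl. For the epiblast list they ran from 19480.0 to 26630.0 in Dep and from 21910.0 to 23710.0 in Ctl, and for primitive endoderm from 25410.0 to 30090.0 in Dep and from 24130.0 to 30130.0 in Ctl. Dab2 made up much of the primitive endoderm sum (22085 of 27510.0 in Dep 1), and the mean log2 level of these markers was 6.66, 9.88 and 10.06 in Dep 1, 2 and 3, against 8.97, 9.76 and 7.35 in Ctl 1, 2 and 3. For the epiblast markers the mean log2 level was 8.18, 9.87 and 9.66 in Dep 1, 2 and 3. In Ctl 1, 2 and 3 it was 9.43, 9.85 and 9.6. Xist, the RNA of the inactive X chromosome, had 151, 3784 and 5588 normalized counts in Dep 1, 2 and 3, against 10312, 5518 and 874 in Ctl 1, 2 and 3. The Y-linked gene Eif2s3y had 2673, 188 and 1318 in Dep 1, 2 and 3, against 0, 1888 and 1574 in Ctl 1, 2 and 3. Dep 2, Dep 3 and Ctl 2 thus joined Eif2s3y reads with the highest Xist values after that of Ctl 1, which is unusual for the single embryos named in the labels, and the reason was not tested. Without these 3 libraries Ctl is 2 embryos and Dep is 1, namely Dep 1 with its 691 genes without a read. The log2 difference, with no test, is then that of Dep 1 alone. It was -1.49 for Uhrf2, -0.87 for Uhrf1, -0.43 for Zfp57 and -0.39 for Dnmt1. For Dnmt3a it was -0.13, for Trim28 -0.02, for Dppa3 0.32 and for Dnmt3b 0.38. Mitochondrial transcripts took 3.05% to 4.003% of the reads in Dep and 3.86% to 7.04% in Ctl. In a whole embryo, fewer cells of a type and less RNA per cell cannot be told apart.

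Compared per exon length, Dppa3 stood far above the other genes. It averaged 3306 ± 1187 FPKM (reads scaled by exon length and by the reads of the library) in Dep and 3856 ± 920.2 FPKM in Ctl (SD, n = 3 each), a level at or above that of 99.96% of the genes. Trim28 followed with 76.3 ± 18.3 FPKM in Dep and 71.7 ± 10.6 FPKM in Ctl. Dnmt3b, at 30.4 ± 5.69 FPKM in Dep and 27.9 ± 1.78 FPKM in Ctl, exceeded Uhrf1, at 13.3 ± 7.88 FPKM in Dep and 16.2 ± 5.68 FPKM in Ctl. Each of these genes was above the next in 6 of 6 embryos, as was Uhrf1 above Dnmt1, which had 6.67 ± 2.73 FPKM in Dep and 6.33 ± 0.55 FPKM in Ctl. Dnmt1 was above Dnmt3a in 6 of 6 embryos too, at 3.97 ± 1.67 FPKM in Dep and 3.73 ± 1.43 FPKM in Ctl. Below that the order was not settled: Dnmt3a exceeded Uhrf2 in 3 of 6 embryos, and Uhrf2 exceeded Zfp57 in 4 of 6. The FPKM of Uhrf2 was 2.996 ± 1.51 in Dep and 4.28 ± 0.388 in Ctl, and that of Zfp57 4.56 ± 3.997 in Dep and 2.35 ± 1.08 in Ctl. With the longest annotated transcript as the length, Uhrf2 stood above Dnmt1 and Dnmt3a, at a mean FPKM of 8.84 against 8.17 and 6.61, so the order among these 3 genes depends on the length used, whereas the first 4 places were the same.

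**Figure D1:**
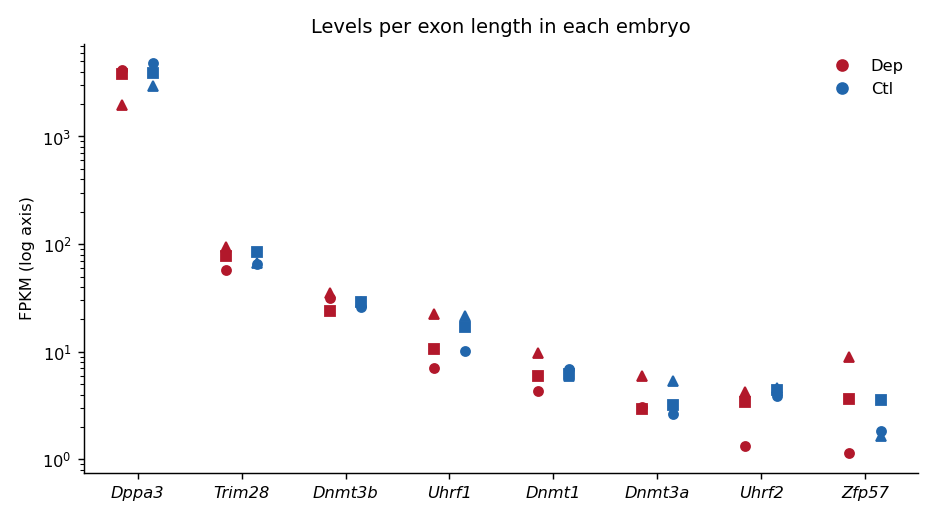
FPKM of each gene on a log axis in 3 Dep embryos (red, left) and 3 Ctl embryos (blue, right), with circles, squares and triangles for embryos 1, 2 and 3. Dppa3 lies from 1946 to 4770 FPKM, and the 3 genes on the right overlap each other.

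None of the 8 genes passed the test between the groups, whose threshold was an adjusted p of 0.05 by limma over all 12149 genes (adjusted p = 0.99968 for each of the 8). Over all genes the share called was 0%, and 225 genes, or 1.85%, had an unadjusted p under 0.05, among them 0 of the 8. On the recovered reads edgeR called 0 genes and DESeq2 1, which is not one of the 8. The authors' deposited table gives the 8 genes log2 folds from -0.56 for Uhrf2 to 0.87 for Zfp57, with an adjusted p of 0.99993 for each. The log2 fold of Dep over Ctl was above 0 for 5 of the 8 and below 0 for 3, where 48.2% and 51.8% of all genes were. Its median was 0.04 over the 8 genes and -0.02 over all genes. In 7 of the 8 genes the values of the groups overlapped. The exception was Uhrf2, lower in each Dep embryo than in each Ctl embryo, and over all genes 3.8% were lower without overlap and 6.9% were apart in either direction.

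**Figure D2:**
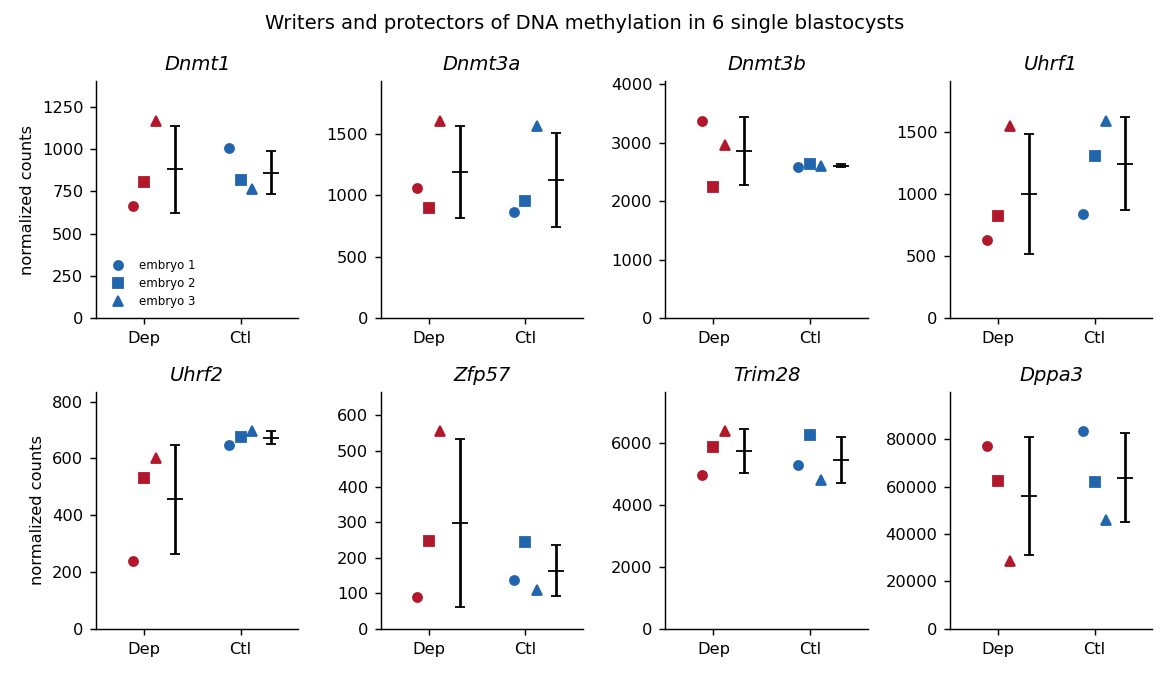
Normalized counts of each gene in 3 Dep embryos (red) and 3 Ctl embryos (blue), with circles, squares and triangles for embryos 1, 2 and 3 and black bars for the mean and SD of each group. The 3 Uhrf2 values of Dep, 238 to 599.97, lie below the 3 of Ctl, 649 to 695, and the groups overlap in the other panels.

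Among the writers of new methylation, Dnmt3b was the more abundant and varied little. Dnmt3b had 3378, 2235 and 2953 normalized counts in Dep 1, 2 and 3, against 2580.1, 2634 and 2601 in Ctl 1, 2 and 3. The Ctl embryos lay close together, and the Dep embryos lay on both sides of them. The log2 fold was 0.11 ± 0.26 (SE), with a 95% interval from -0.46 to 0.68 (limma), and it was -0.02 without Dep 1, where the gene was highest. Dnmt3a had 1061, 894 and 1609 normalized counts in Dep 1, 2 and 3, against 863, 953 and 1560.4 in Ctl 1, 2 and 3. Embryo 3 was the highest in both groups, by more than the groups differed. The Dnmt3a log2 fold was 0.08 ± 0.34 (SE; 95% interval -0.68 to 0.85), and it ran from -0.16 without Dep 3 to 0.34 without Ctl 3. The log2 ratio of Dnmt3b to Dnmt3a FPKM within an embryo, which does not depend on library scaling, was 2.99 ± 0.40 in Dep and 2.97 ± 0.46 in Ctl (SD, n = 3 each). It was lowest in embryo 3 of both groups, at 2.58 in Dep 3 and 2.44 in Ctl 3. Exons of Dnmt3a, which lies at 3806007 to 3914443 on chromosome 12 of GRCm38, overlap those of the antisense gene Dnmt3aos, and without strand their reads cannot be told apart. The division of reads between Dnmt3b (153649450 to 153687730 on chromosome 2) and its rodent duplicate Dnmt3c, which is known from male germ cells, is likewise uncertain.

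Of the maintenance genes, Dnmt1 showed no difference that its spread would resolve. Dnmt1 had 667, 804 and 1169 normalized counts in Dep 1, 2 and 3, against 1004, 816 and 763 in Ctl 1, 2 and 3. The lowest and the highest value were both in Dep. The log2 fold was 0.00 ± 0.32 (SE; 95% interval -0.71 to 0.71). Uhrf1, the partner that recognizes hemimethylated CpGs after replication, had 635, 825 and 1549 normalized counts in Dep 1, 2 and 3, against 844, 1308 and 1596 in Ctl 1, 2 and 3. The groups overlapped widely, and in both of them embryo 3 was the highest and embryo 1 the lowest. The log2 fold was -0.37 ± 0.39 (SE; 95% interval -1.24 to 0.50), and it stayed below 0 with each embryo left out, from -0.74 without Dep 3 to -0.09 without Dep 1. The log2 ratio of Uhrf1 to Dnmt1 FPKM was 0.72, 0.83 and 1.199 in Dep 1, 2 and 3, against 0.54, 1.47 and 1.86 in Ctl 1, 2 and 3, with the Dep values inside the range of Ctl. In GRCm38, Dnmt1 spans 20907209 to 20959888 on chromosome 9 and Uhrf1 56303321 to 56323486 on chromosome 17.

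Uhrf2, a relative of Uhrf1 that binds similar DNA but is known not to replace it in maintenance, had the largest negative log2 fold of the 8 genes. It had 238, 529 and 599.97 normalized counts in Dep 1, 2 and 3, against 649, 675 and 695 in Ctl 1, 2 and 3. The Ctl embryos were close together, and Dep 1 lay far below the other Dep embryos. The log2 fold was -0.67 ± 0.40 (SE; 95% interval -1.56 to 0.23). Without Dep 1 it was -0.25, and without Dep 2 or Dep 3 it was larger, at -0.83 and -0.92. Dep 1 is also the embryo with the most genes at 0, and the part of this in the Uhrf2 value was not tested. Serpine2 and Nr5a2, the 2 of 12 cumulus and granulosa markers in the table and both known from embryos too, summed to 3055 to 3279 in Dep and 3799 to 5836 in Ctl. Serpine2 was lower in Dep without overlap, at 1796 to 2603 in Dep and 2911 to 4674 in Ctl. Over all genes, 3.8% were lower in Dep without overlap. Nr5a2 overlapped, at 676 to 1259 in Dep and 888 to 1162 in Ctl. The part of these 2 markers in the Uhrf2 value was not tested. The log2 ratio of Uhrf1 to Uhrf2 FPKM was 2.15 ± 0.43 in Dep and 1.86 ± 0.42 in Ctl (SD, n = 3 each), with overlapping values. Uhrf2 lies at 30030513 to 30093722 on chromosome 19.

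Zfp57, the zinc finger protein that marks imprinted regions for protection, was the least abundant in normalized counts and the most variable. It had 89.8, 247 and 555 normalized counts in Dep 1, 2 and 3, against 136, 245 and 109 in Ctl 1, 2 and 3. Both the lowest and the highest value were in Dep, 6.12-fold apart on the log2(count + 1) scale. The log2 fold was 0.59 ± 0.68 (SE; 95% interval -0.91 to 2.09), and it was -0.04 without Dep 3 and 1.27 without Dep 1. The SD of log2 levels within groups was 1.02, at or above that of 81.0% of genes, where the median gene had 0.54. Trim28, the corepressor that ZFP57 recruits, lay at the other end, with an SD of 0.19 that reached or exceeded that of only 4.17% of genes. It had 4975, 5865 and 6384 normalized counts in Dep 1, 2 and 3, against 5288, 6275 and 4824 in Ctl 1, 2 and 3. These values interleave, and the log2 fold was 0.07 ± 0.25 (SE; 95% interval -0.48 to 0.63). The log2 ratio of Zfp57 to Trim28 FPKM ran from -5.66 in Dep 1 to -3.39 in Dep 3, and from -5.34 in Ctl 3 to -4.55 in Ctl 2. Zfp57 lies at 37001163 to 37010635 on chromosome 17 and Trim28 at 12999114 to 13031035 on chromosome 7.

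Dppa3 had 77003, 62146 and 28428 normalized counts in Dep 1, 2 and 3, against 83304, 62108 and 45814 in Ctl 1, 2 and 3. The embryos numbered 2 were almost equal, and the lowest value was in Dep 3. The log2 fold was -0.27 ± 0.44 (SE; 95% interval -1.23 to 0.70), and without Dep 3 it was 0.16. The gene lies at 122626410 to 122630272 on chromosome 6. Reads can be shared with its processed copies in the genome, of which Dppa3-ps, on chromosome X, is listed.

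**Figure D3:**
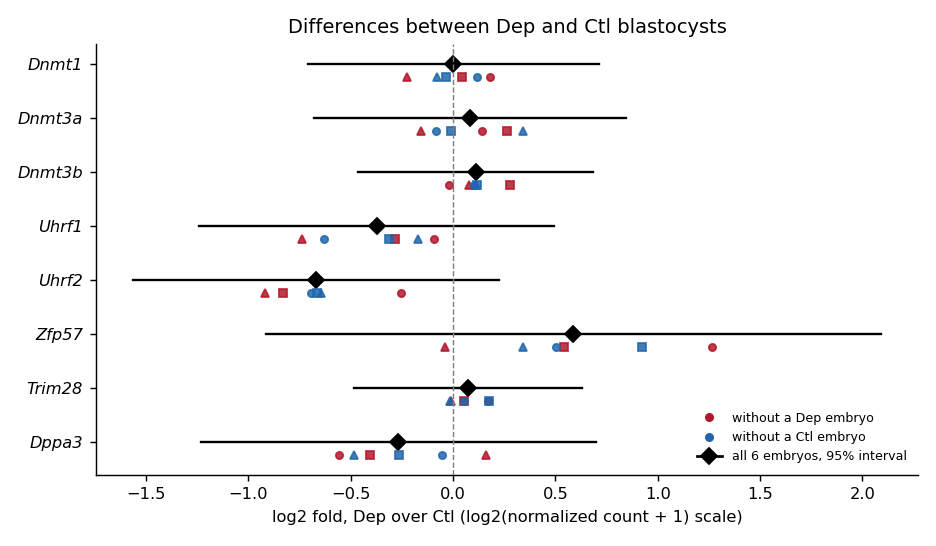
Log2 fold of Dep over Ctl for each gene (diamond) with its 95% interval (line) by limma, and below it the values with 1 Dep embryo (red) or 1 Ctl embryo (blue) left out, with circles, squares and triangles for embryos 1, 2 and 3. All 8 intervals hold 0, and the Uhrf2 values without 1 embryo run from -0.92 to -0.25.

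The genes did not vary together in 1 direction among embryos of a group. In both groups embryo 3 had the most Uhrf1 and Uhrf2 and the least Dppa3, and embryo 1 the reverse. The order of the 3 embryos was the same in Dep and in Ctl for these 3 of the 8 genes, and for 26.4% of all genes. Dnmt3a was highest in embryo 3 of both groups, but Dnmt1 and Zfp57, highest in Dep 3 within Dep, were lowest in Ctl 3 within Ctl. Over all 6 embryos, Dep 1 held the lowest value of 4 of the 8 genes (Dnmt1, Uhrf1, Uhrf2 and Zfp57) and Dep 3 the highest value of 4 (Dnmt1, Dnmt3a, Zfp57 and Trim28). Of all genes, 29.7% were lowest in Dep 1 and 18.7% highest in Dep 3. Between embryos of the same number, Uhrf1 and Uhrf2 were lower in Dep in 3 of 3 cases, as were 12.6% of all genes. For Uhrf2 this was fixed by its groups not overlapping. The fit with the number as a block, whose pairing comes from the data and not from the labels, called 0 genes, and among the 8 its smallest adjusted p was 0.941 (limma).

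**Figure D4:**
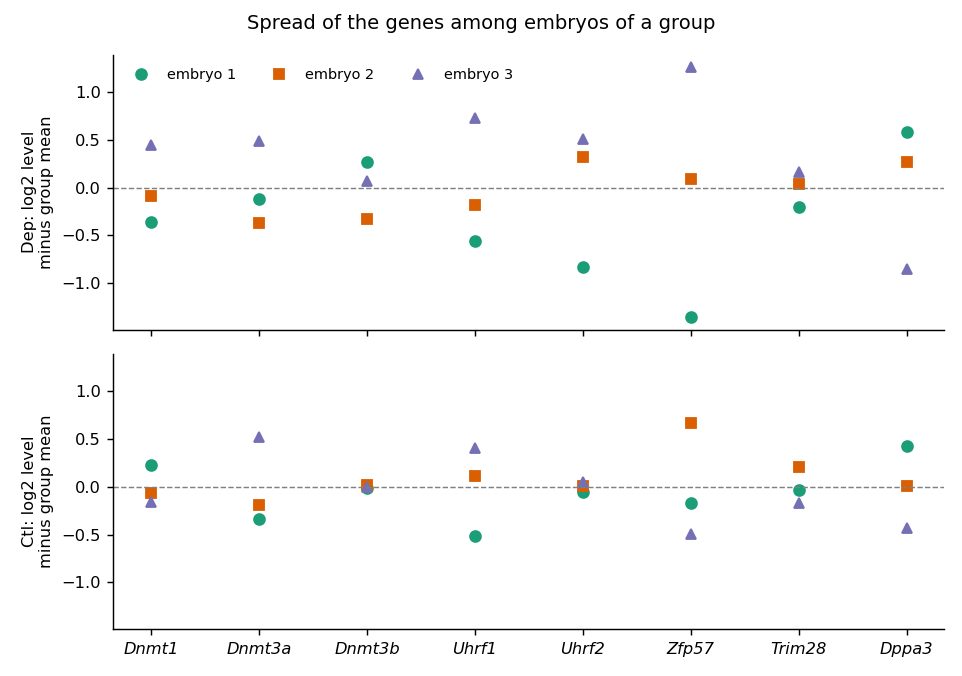
Log2 level of each gene minus the mean of its group, for the Dep embryos (top) and the Ctl embryos (bottom), with a circle, a square and a triangle for embryos 1, 2 and 3. Embryo 3 is at the top for Uhrf1, Uhrf2 and Dnmt3a and at the bottom for Dppa3 in both groups, and its place for Dnmt1 and Zfp57 differs between them.

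Genes that work with these 8 were read from 5 lists of the surrounding pathway, and none passed an adjusted p of 0.05 by limma. Of the 15 methyltransferase partners 8 had a log2 fold above 0 and 7 below, with a median of 0.01 that ran from -0.10 without Ctl 3 to 0.12 without Dep 3. Dnmt3l, the cofactor that stimulates DNMT3A and DNMT3B, had 2432, 1671 and 1963 normalized counts in Dep 1, 2 and 3, against 1733, 1738 and 2129.6 in Ctl 1, 2 and 3, a log2 fold of 0.10 ± 0.27 (SE) that was -0.04 without Dep 1. Hells, a chromatin remodeller needed for methylation of repeats, was lower in each Dep embryo, at 1769, 1688 and 1579, than in each Ctl embryo, at 2632, 1934.5 and 1921, a log2 fold of -0.35 ± 0.26 (SE), which was -0.20 without Ctl 1. Dmap1 and Rbbp4, of DNMT1-binding and histone deacetylase complexes, had log2 folds of 0.34 and 0.30 with overlapping groups, and that of Dmap1 was 0.20 without Dep 2. Hells was the 1 of 15 with groups apart, where 6.9% of all genes were apart in either direction.

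Of the 17 measured genes of the TRIM28 complex and of H3K9 methylation 7 had a log2 fold above 0 and 10 below, with a median of -0.07. That median was 0.10 without Dep 2, with 9 above and 8 below, and -0.31 without Dep 3, with 5 above and 12 below. The median log2 ratio of the group means of these genes was 0.07. Setdb1, the H3K9 methyltransferase that TRIM28 recruits, had 1105, 924 and 1933 normalized counts in Dep 1, 2 and 3, against 1289, 1183 and 1299 in Ctl 1, 2 and 3, a log2 fold of 0.00 ± 0.32 (SE) that ran from -0.31 without Dep 3 to 0.22 without Dep 2. Zfp445, which acts beside ZFP57 in imprint protection in mouse, had 25.5, 198 and 126 in Dep 1, 2 and 3, against 328, 163 and 263 in Ctl 1, 2 and 3. The groups overlapped, and its log2 fold of -1.47 ± 0.75 (SE) was -0.61 without Dep 1. Morc3, a chromatin ATPase, was lower in each Dep embryo, at 1269.9 to 1664, than in each Ctl embryo, at 1949 to 1982, a log2 fold of -0.41 ± 0.25 (SE). Cbx1, a heterochromatin protein that binds methylated H3K9, was higher in each Dep embryo, at 1671 to 2905, than in each Ctl embryo, at 1513 to 1664, with a log2 fold of 0.39 ± 0.29 (SE) that was 0.14 without Dep 1. So 1 of the 17 was lower and 1 higher without overlap, where 3.8% and 3.09% of all genes were.

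Of the 9 measured genes listed as readers of methylated CpG or as relatives of such readers, 4 had a log2 fold above 0 and 5 below. Their median was -0.05, and the groups overlapped in all 9. The median was 0.19 without Dep 2, 0.16 without Ctl 2 and -0.31 without Dep 3. Mbd4, a DNA glycosylase for mismatches at CpGs, had a log2 fold of -0.69 ± 0.46 (SE), and -0.35 without Dep 1. Mbd3, a subunit of a chromatin remodelling and deacetylase complex, had a log2 fold of 0.21 ± 0.28 (SE), which was 0.01 without Dep 3 and 0.38 without Dep 2. Of the 18 measured genes of the methyl donor supply 9 lay on each side of 0, with a median of 0.00 that ran from -0.18 without Ctl 1 to 0.05 without Ctl 2. Mat2a, which makes S-adenosylmethionine, had 3823, 6438 and 4623 normalized counts in Dep 1, 2 and 3, against 4823, 5530.5 and 6132 in Ctl 1, 2 and 3. Mat2b, its regulatory subunit, was higher in each Dep embryo, at 1555, 1150.0 and 963, than in each Ctl embryo, at 636, 888 and 901, a log2 fold of 0.59 ± 0.31 (SE). Amd1, which draws S-adenosylmethionine into polyamine synthesis, was lower in each Dep embryo, at 2617.5 to 3470.1, than in each Ctl embryo, at 3508 to 4156, and the folate carrier gene Slc19a1 had a log2 fold of 1.13 ± 0.74 (SE) with overlapping groups, 0.60 without Ctl 1 and 1.83 without Ctl 2. As background to the genes named for groups that did not overlap, 3.09% of all genes were higher in every Dep embryo than in every Ctl embryo and 3.8% were lower.

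Germ-line genes that are known in mouse to be silenced by methylation of their promoters had the lowest median of the 5 lists, and leaving out Dep 1 moved it most of the way to 0. Of the 13 measured members 11 had a log2 fold below 0 and 2 above, with a median of -1.17, and none passed the adjusted threshold (limma). Without Dep 1, where Ddx4, Brdt and Tex101 were listed at 0, 7 were below 0 and 6 above, with a median of -0.19. Their summed normalized counts were 4369, 9073 and 4725 in Dep 1, 2 and 3. In Ctl 1, 2 and 3 they were 6469, 6658 and 4848. These sums overlap, but 1 member, Tex19.1, gave 6047 of the 9073 in Dep 2. Averaged over the 13 genes on the log2 scale, the groups did not overlap. Dep 1, 2 and 3 then stood at 5.48, 7.54 and 7.41, and Ctl 1, 2 and 3 at 7.63, 8.03 and 7.72. The gap was narrow, from 7.54 in Dep 2 to 7.63 in Ctl 1, and Mael, whose own groups were apart, is among the 13. What share of other gene sets would show such a gap was not computed. Dep 1 lay far below the other embryos. The median log2 ratio of the group means of these genes was -0.29. Mael, a piRNA pathway gene picked with its difference already known, had 269.5, 314 and 141 normalized counts in Dep 1, 2 and 3, against 369, 872 and 759 in Ctl 1, 2 and 3, a log2 fold of -1.45 ± 0.47 (SE) and the 1 of 13 with groups apart. Over all genes, 6.9% were apart in either direction. Asz1, of the same pathway, had 663, 71.5 and 202 in Dep 1, 2 and 3, against 649.8, 721 and 432 in Ctl 1, 2 and 3, with a log2 fold of -1.46 ± 0.69 (SE), -2.28 without Dep 1 and -0.68 without Dep 2. Brdt, a testis bromodomain gene, had 0, 85.4 and 34.5 in Dep 1, 2 and 3, against 30.8, 90.2 and 131.5 in Ctl 1, 2 and 3.

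**Figure D5:**
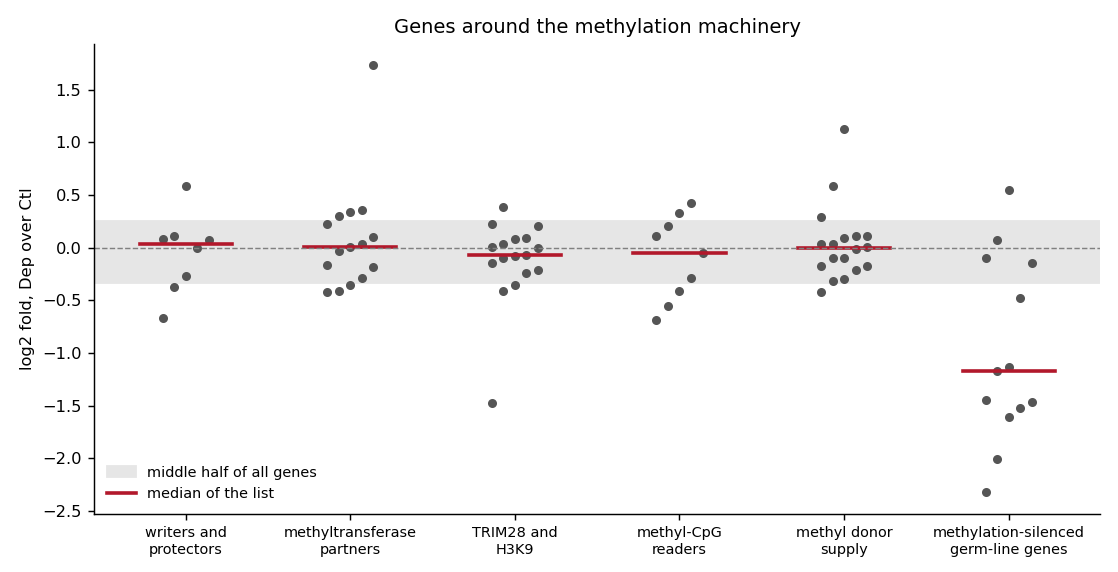
Log2 fold of Dep over Ctl for each measured gene (dots) of the 8 writers and protectors and of 5 surrounding lists, with the median of each list in red and the range between the lower and upper quartiles of all genes in grey. The medians of the first 5 lists lie between -0.07 and 0.04, and that of the germ-line genes at -1.17, or -0.19 without Dep 1.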

How the data were processed

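RNA of 6 single blastocysts was sequenced after lysis and SMART-Seq v4 cDNA synthesis, per the labels' protocols. HISAT2, Cufflinks 2.2.1 and mm10 appear without roles in the submitters' processing notes. How reads were counted, and on which annotation, is not given in the sources used here. In the deposited table each gene has a signal value for each library, which its values show to be a read count over a size factor. Per the file headers the table also gives a mean signal, the log2 fold change and its error, a statistic (score) and p-values, under the names of a DESeq2 results table. Dividing by the value of 1 read gave whole reads for 100% of values within 0.01. For Dep 2 that value, 0.993, is so near 1 that the reading rests on the other libraries. The lowest gene mean is 14.2, so rarer genes were left out before deposit. No molecular identifiers are described, and reads are not independent molecules.

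Of 12149 identifiers 11829 matched GENCODE M21 on GRCm38, and FPKM was computed from recovered reads and the union of exons. limma 3.58.1 with a mean-variance trend compared log2(normalized count + 1) of Dep with Ctl over all genes, with Benjamini-Hochberg adjustment. On this scale the added 1 damps changes of low genes, while a library at or near 0 pulls down the mean of log2 values, so that Ddx4, with group means of 57.0 in Dep and 57.3 in Ctl, has a log2 fold of -1.52. edgeR 4.0.16, DESeq2 1.42.0 and other scalings, weights, a block and left-out embryos were alternatives. R was 4.3.3 and Python 3.11.15. The fits were tested on simulated data.

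The 8 genes, the lists and the tests were chosen with earlier results of these data known. Of each surrounding list the 3 genes of smallest unadjusted p are named, with Dnmt3l, Hells, Setdb1, Zfp445, Mat2a and Mael in any case. One gene that this rule names is not reported here. Dppa3-ps was chosen after its values were seen. Shared parents or injection days of the embryos are not stated in the labels, so p-values measure the spread between these embryos. Whether the embryos of a group received the same small RNA preparation or different ones is not known here. The p-values therefore do not measure a spread between sperm donors or preparations. Both groups are numbered 1 to 3, and deviations from the group means correlated across genes between same-numbered embryos with r = 0.133, 0.151 and 0.129, each over 0.1, so a block of equal numbers was fitted as an alternative. The printed errors, intervals and p-values come from the fit without it, unless the block is named. The labels state no such pairing. No 2 libraries agreed within counting noise (chi-square per degree of freedom of at least 86.7).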

Additional observations from a re-analysis of the deposited data

How the results depend on the processing

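The 8 log2 folds were recomputed under 15 other settings, 6 of which left out 1 embryo. In 108 of the 120 values the direction was kept with no call, and in 12 the sign turned, 11 of these with 1 embryo left out. Dropping the mean-variance trend, keeping genes with a mean of at least 100, or fitting the replicate block could not change these folds. Their values under those settings repeat the main ones. None of the 8 genes was called by limma, edgeR or DESeq2 in any of the 15 settings, and the smallest adjusted p was 0.838. The fold of Dnmt3b was -0.026 with library weights. With 1 embryo left out the folds ran from -0.22 to 0.18 for Dnmt1, -0.16 to 0.34 for Dnmt3a, -0.02 to 0.28 for Dnmt3b, -0.041 to 1.27 for Zfp57, -0.012 to 0.18 for Trim28 and -0.56 to 0.16 for Dppa3, so their direction rests on single embryos. Those of Uhrf1 and Uhrf2 stayed below 0, from -0.74 to -0.09 and from -0.92 to -0.25. For Uhrf2 this had to follow, because each Dep value lay below each Ctl value. With all 6 embryos the values nearest to 0 were -0.31 for Uhrf1 and -0.43 for Uhrf2. The median of the 8 ran from -0.10 to 0.06 with 1 embryo left out. The number of genes called over the whole table was 0, and 1 with DESeq2; the replicate block called 0 genes, none of the 8, with a median of 0.04, and changed no call. With the longest transcript as length, 3 of the 8 genes changed rank, and the mean log2 ratios were 0.973 for Uhrf1 to Uhrf2, in place of 2.005, and 2.44 for Dnmt3b to Dnmt3a, in place of 2.98. With 1 embryo left out, from 0 to 3 genes changed rank. The cause of these shifts was not tested, beyond the length itself. With Zfp57 at 74 reads in Dep 1, depth gives that value a counting error of 11.6%. The medians of the lists with 1 embryo left out, the ratios of group means and the values without Dep 2, Dep 3 and Ctl 2 were chosen after seeing the data.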

Other observations

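Dppa3-ps, an annotated copy of Dppa3 on chromosome X, had 104, 102 and 27.0 normalized counts in Dep 1, 2 and 3, against 127, 83.5 and 78.5 in Ctl 1, 2 and 3. Its order among the embryos of each group was that of Dppa3 itself, with embryo 1 the highest and embryo 3 the lowest. The log2 fold of Dep over Ctl was -0.50 ± 0.75 (SE), with overlapping groups (limma, adjusted p = 0.99968). Whether these are reads of the copy or of Dppa3 was not tested.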
